A study of Mus with 2 samples.

Results

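Vessel-rich spots were chosen in spatial gene expression maps of 2 CT26 tumors, as the 10% of spots in each section with the most RNA from 6 endothelial genes. Among spots with more than 200 genes, 222 of 2219 control spots and 195 of 1950 rIL7 spots were vessel-rich, 417 of 4169 in all. CT26 is a mouse colon carcinoma cell line, and the tumors grew under the skin of balb/c mice 6 to 8 weeks old after injection of 200000 cells, so all tumor cells come from 1 cell line. The control group received PBS. The rIL7 group received 10 µg of rIL7, recombinant mouse interleukin 7, into the peritoneum on days 11 and 13 after transplantation, and both tumors were taken on day 15. In the Visium assay a 10 µm section lies on a grid of barcoded spots, each of which covers a small patch of mixed cells, and each captured RNA molecule is counted once as a unique molecular identifier (UMI). Each group had 1 section, with 22951678 UMIs for the control and 25729233 for rIL7, so no comparison below has a replicate check, no test was run, and the 95% intervals cover counting error only. A level is given as CPM, the UMIs of a gene or gene list per 1000000 UMIs of the spots named, and a ratio is the CPM of vessel-rich spots over that of the other spots of the same section.

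Blood vessels are lined by endothelial cells, which hold to each other through VE-cadherin and claudin-5 and answer to vascular endothelial growth factor (VEGF) from tissue short of oxygen. Pericytes and smooth muscle cells, together called mural cells, wrap the endothelium, and both rest on a basement membrane of type IV collagen and laminin. Endothelium of venules carries the selectins and adhesion molecules by which leukocytes leave the blood, and tumor vessels are known to be irregular, leaky and unevenly covered by mural cells.

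The 6 genes that chose the spots were Pecam1 (the junction protein CD31, chr11:106654213-106715281 in GRCm38), Cdh5 (VE-cadherin, chr8:104101613-104144504), Kdr (VEGF receptor 2, chr5:75932827-75979072), Emcn (endomucin, chr3:137341062-137431069), Cldn5 (claudin-5, chr16:18776847-18778262) and Egfl7 (a protein secreted by endothelium, chr2:26581083-26592682). Their values are a description, since they made the selection. Pecam1 had 80.5 against 16.5 CPM in vessel-rich against other spots of the control section, and 112 against 16.6 CPM in the rIL7 section. Egfl7 had 121 against 17.8 CPM in the control tumor and 98.0 against 13.7 CPM after rIL7. These genes supplied most of the UMIs behind the ranking in both sections. Cdh5 had 42.2 against 6.79 CPM and 49.9 against 5.46 CPM, and Kdr had 42.2 against 6.98 CPM and 33.1 against 4.91 CPM, in the same order. Emcn and Cldn5 were the sparsest, with 14.7 and 9.33 CPM in the control vessel-rich spots and 16.3 and 14.9 CPM in those of the rIL7 section.

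The selection rested on few molecules. A vessel-rich spot held a median of 2.5 UMIs of the 6 genes in the control section (1 to 10) and 3 in the rIL7 section (1 to 16). Members with 3 or more numbered 111 in the control tumor and 122 after rIL7, and 54 and 33 members held UMIs of a single gene of the 6. At the threshold, the lowest member had 209.14 CPM and the highest spot left out 208.40 CPM in the control section, against 186.06 and 185.98 CPM in the rIL7 section. In the control section 51.6% of spots had 0 UMIs of the 6 genes, and in the rIL7 section 50.5%, which at this depth does not show that such spots lack vessels. Fewer endothelial cells in a spot and less of these RNAs per cell cannot be told apart.

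Each of the 6 genes was also read in spots chosen by the other 5, so that it had no part in the choice. Pecam1 had 40.4 against 20.5 CPM in spots so chosen against the rest of the control section, a ratio of 1.97 (1.53 to 2.51), and 54.6 against 21.6 CPM after rIL7, a ratio of 2.52 (2.04 to 3.09). Egfl7 gave 1.85 (1.48 to 2.30) and 3.20 (2.58 to 3.94). The lowest control ratio was that of Kdr, 1.56 (1.04 to 2.28), and the highest that of Emcn, 2.95 (1.54 to 5.32). In the rIL7 section Emcn was again the highest, at 6.83 (4.08 to 11.2). Each of the 6 genes was higher, in each section, where the other 5 were rich.

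Depth and position moved with the selection. The median vessel-rich spot held 8588 UMIs against 9767 in the other control spots, and 10289 against 13136 in the rIL7 section. Spots under 5000 UMIs made up 14.0% of vessel-rich and 4.91% of other spots in the control section, and 9.74% and 1.71% in the rIL7 section. Mitochondrial genes took 0.227% of vessel-rich and 0.256% of other UMIs in the control section, and 0.228% and 0.146% in the rIL7 section. Ranking within depth classes and keeping only spots of at least 5000 UMIs were tried as alternatives, with values given at the end. The sections share 1701 spot barcodes, as slides of this assay carry the same barcode set, and spots were kept apart by section throughout.

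In the rIL7 section vessel-rich spots lay at the rim of the tissue more often than in the control section. Edge spots, within 2 grid steps of the outline of the main piece, were 45.1% of vessel-rich spots (38.0 to 52.4) and 13.8% of other spots in the rIL7 section. In the control section they were 24.8% (19.2 to 31.0) and 17.3%. A further 11 of the 21 rIL7 spots that lay off the main piece were vessel-rich, against 2 of 12 in the control section. This left 96 vessel-rich spots among 1599 interior spots of the rIL7 section and 165 among 1806 of the control section. Interior values are given beside those of the whole section for most lists and for some genes.

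**Figure D1:**
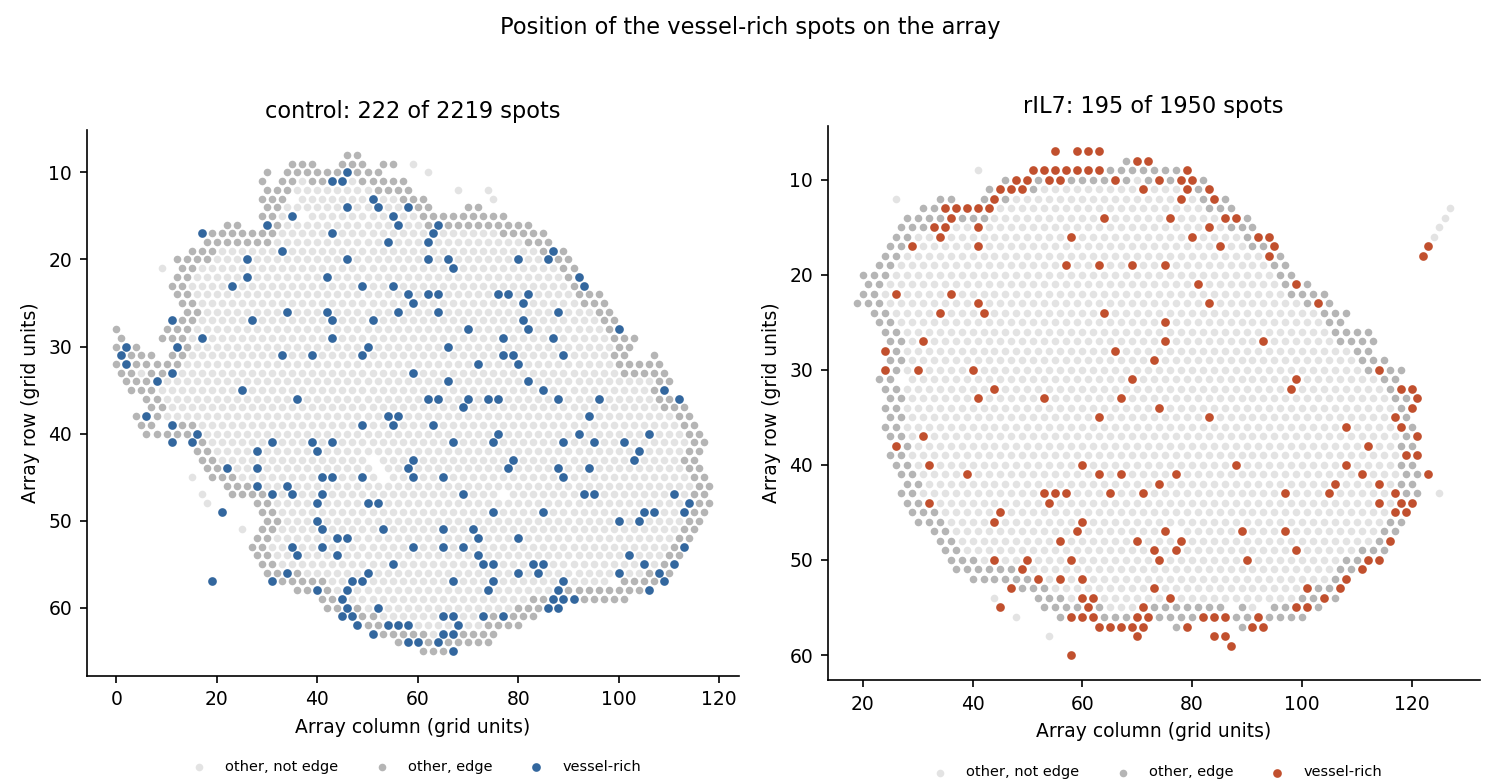
Each point is a spot at its array column and row (grid units), with vessel-rich spots in color, other edge spots in darker grey and all remaining spots in light grey. The 195 rIL7 members crowd the rim, where 45.1% of them lie, while 24.8% of the 222 control members lie at the edge.

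Most patches of vessel-rich spots were single spots, and the largest lay in the rIL7 section. The control members formed 149 patches of touching spots, of which 102 were single spots and the largest held 9. The rIL7 members formed 115 patches, of which 87 were single spots. The largest rIL7 patch held 24 spots, 21 of them at the edge. Patches of 5 or more spots held 49 of the 195 rIL7 members and 22 of the 222 control members. Over whole sections, 12.6% of the neighbours of control members and 20.1% of those of rIL7 members were members, where 10% of spots were. In the interior, 10.2% of the neighbours of control members were members too, where 9.14% of interior spots were, and the rIL7 values were 5.89% and 6.00%.

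Other endothelial genes were higher in the vessel-rich spots of both tumors, and to a similar degree in both interiors. Over 39 further endothelial genes the summed ratio was 1.22 (1.17 to 1.27) in the control tumor and 1.41 (1.35 to 1.47) after rIL7, and 1.19 (1.13 to 1.26) and 1.18 (1.11 to 1.26) in the interiors. Ecscr and Cd34 held 69.9% of the list's UMIs in the control tumor and 69.3% after rIL7. Cd34, a surface sialomucin of endothelium and progenitor cells, had 446 against 449.8 CPM in the control tumor and 373 against 394 CPM after rIL7. Ecscr, an endothelial surface protein, had 181 against 175 CPM and 189 against 208 CPM. Both were close to level, and without them, a step taken after their values were seen, the list had a ratio of 1.75 (1.63 to 1.88) in the control tumor and 2.62 (2.46 to 2.78) after rIL7. In the interiors it was 1.65 (1.52 to 1.79) and 1.59 (1.44 to 1.76). Over 4 quadrants of each section it ran from 1.68 to 1.91 in the control and from 2.03 to 3.07 in the rIL7 section.

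Gene by gene, the endothelial list lay above the median of all genes. Of its 33 genes that reached 20 UMIs in each section, 30 had a ratio above 1 in the control tumor and 31 after rIL7, and 23 and 25 were at least 1.5-fold higher, with 0 that were 1.5-fold lower in either. The median log2 ratio was 1.03 in the control tumor and 1.97 after rIL7, and 0.84 and 0.77 in the interiors. Of all 12927 genes with that many UMIs, 743 genes (5.75%) were 1.5-fold higher and 645 genes (4.99%) lower in the control section, and 1294 genes (10%) higher and 768 genes (5.94%) lower in the rIL7 section. The median log2 ratio of all those genes was 0.02 in the control tumor and 0.0030 after rIL7.

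Several receptors and regulators of the endothelium were higher in both sections. Tie1, an orphan receptor of the angiopoietin system, had 11.3 against 5.40 CPM in the control tumor and 16.3 against 2.88 CPM after rIL7, ratios of 2.09 (1.27 to 3.29) and 5.68 (3.65 to 8.69). Tek, the angiopoietin receptor TIE2, had 3.93 against 1.1 CPM and 7.68 against 0.507 CPM, ratios of 3.57 (1.38 to 8.27) and 15.1 (6.72 to 35.1). Both receptors were also higher in the interiors, Tie1 at 2.05 and 4.01 and Tek at 3.64 and 8.94. Ramp2, a partner of the adrenomedullin receptor, had 18.7 against 5.83 CPM and 24.0 against 4.10 CPM, ratios of 3.20 (2.16 to 4.64) and 5.85 (4.08 to 8.32), and 3.15 and 3.90 in the interiors. Mmrn2, a matrix protein of the vessel wall, had 13.7 against 3.92 CPM and 17.3 against 2.37 CPM, ratios of 3.51 (2.20 to 5.44) and 7.30 (4.67 to 11.3). Robo4, a receptor that steadies endothelium, had ratios of 3.16 (1.81 to 5.28) and 3.99 (2.45 to 6.31). These genes were low, and Tek rested on 8 UMIs in control and 16 in rIL7 vessel-rich spots.

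Other members of the list also had ratios above 1, although the interval of Nos3 reached below 1 in the rIL7 section. Eng (endoglin, a co-receptor of transforming growth factor beta) had 29.0 against 15.2 CPM in the control tumor and 59.6 against 17.0 CPM after rIL7, ratios of 1.91 (1.42 to 2.53) and 3.49 (2.83 to 4.28), and 1.44 and 2.30 in the interiors. Esam, an adhesion molecule of endothelial junctions, had 2.18 (1.44 to 3.20) and 4.82 (3.46 to 6.63). Nos3, the endothelial nitric oxide synthase, had 2.13 (1.43 to 3.08) and 1.49 (0.888 to 2.39). Gpihbp1, which holds lipoprotein lipase on capillaries, had 1.83 (1.28 to 2.58) and 2.30 (1.54 to 3.34).

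Not every gene of the list followed. Flt1 (VEGF receptor 1) had 30.0 against 23.0 CPM in the control tumor and 35.5 against 32.4 CPM after rIL7, ratios of 1.30 (0.981 to 1.70) and 1.1 (0.852 to 1.39), both with intervals that reached below 1. Cd93, which myeloid cells also make, had 1.04 (0.821 to 1.29) and 1.32 (1.07 to 1.62). S1pr1, the sphingosine 1-phosphate receptor shared with lymphocytes, had 0.860 (0.482 to 1.43) and 1.46 (0.954 to 2.15).

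**Figure D2:**
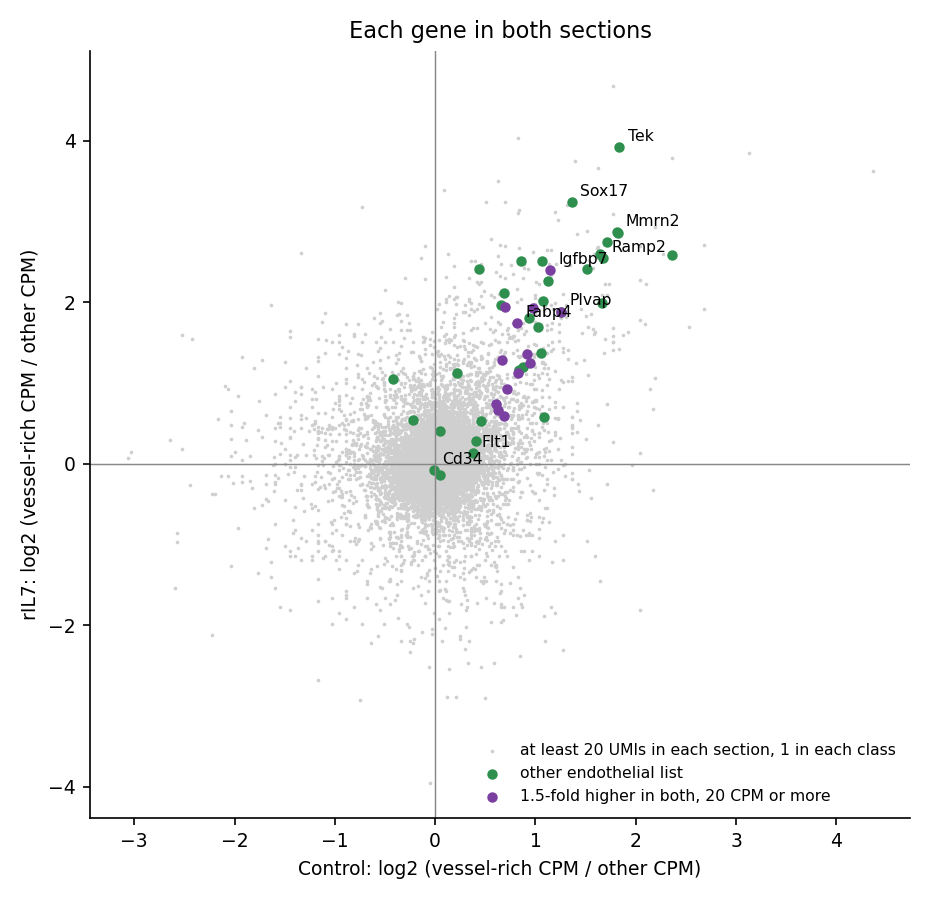
Each point is a gene outside the 6 selecting genes, with at least 20 UMIs in each section and at least 1 UMI in vessel-rich and in other spots, and the axes give its log2 ratio of vessel-rich over other CPM in the control (horizontal) and the rIL7 section (vertical). The other endothelial list (green) lies mostly in the upper right, with medians of 1.03 and 1.97, while Cd34 lies near 0 on both axes.

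Markers of vessel type gave a mixed picture. The list for tip cells, which lead new sprouts, had a ratio of 1.12 (1.04 to 1.21) in the control tumor and 0.948 (0.880 to 1.02) after rIL7, and 1.1 and 1.09 in the interiors. Gene by gene, 12 of its 12 genes lay above 1 in the control tumor and 8 after rIL7, with median log2 ratios of 0.38 and 0.41. Past 1.5-fold were 3 and 4 genes, against 5.75% and 10% of all genes, with 0 lower. Sum and median thus differed after rIL7. Dll4, the Notch ligand of tip cells, had 8.35 against 3.16 CPM in the control tumor and 4.80 against 2.03 CPM after rIL7, ratios of 2.65 (1.45 to 4.56) and 2.37 (1.07 to 4.74), and was thus higher in both. Esm1, which VEGF induces in tip cells, had 92.3 against 84.5 CPM and 78.3 against 105 CPM. Its rIL7 ratio was 0.748 (0.634 to 0.876) over the section and 0.997 in the interior. Nid2, a linker of the basement membrane, had 1.67 (0.901 to 2.91) and 2.97 (1.77 to 4.80).

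The arterial list had ratios of 1.02 (0.908 to 1.14) and 1.12 (0.998 to 1.25), and 1.04 (0.912 to 1.18) and 0.971 (0.826 to 1.14) in the interiors. Of its 7 genes with enough UMIs, 2 were 1.5-fold higher in each section, Notch4 and Gja4, and 2 were 1.5-fold lower in the rIL7 section, Efnb2 and Hey1, where 5.75% and 10% of all genes were higher and 5.94% lower in the rIL7 section. Notch4, the endothelial Notch receptor, had 23.6 against 9.42 CPM in the control tumor and 12.5 against 6.13 CPM after rIL7, ratios of 2.50 (1.79 to 3.45) and 2.04 (1.29 to 3.11). Gja4, the arterial gap junction protein connexin 37, had 8 of 41 control UMIs and 13 of 29 rIL7 UMIs in vessel-rich spots. Efnb2, the ephrin ligand of arteries, had 1.09 (0.703 to 1.62) and 0.437 (0.207 to 0.816).

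Genes of postcapillary venules were higher in the vessel-rich spots of the rIL7 section, and most of that excess lay outside the interior. The venous list had a ratio of 1.04 (0.973 to 1.12) in the control tumor and 1.39 (1.32 to 1.47) after rIL7, against 1.0 (0.927 to 1.09) and 1.05 (0.962 to 1.14) in the interiors. Selp (P-selectin) had 43 UMIs in rIL7 vessel-rich spots and 19 in all other spots, a ratio of 25.7 (14.7 to 46.7). Of those UMIs 0 were in interior members, 36 at the edge and 7 off the main piece. Vwf (von Willebrand factor) had 47 against 51 UMIs, a ratio of 10.5 (6.89 to 15.9), with 1 UMI in interior members. Ackr1, the chemokine-binding receptor of venules, had 19 against 15 UMIs, a ratio of 14.4 (6.93 to 30.4), with 0 in interior members. In the control vessel-rich spots Selp, Vwf and Ackr1 had 5, 3 and 2 UMIs, too few to read. Lrg1, a secreted glycoprotein of venules, was higher in both sections, with 30.9 against 12.1 CPM in the control tumor and 77.3 against 14.1 CPM after rIL7. Its ratios were 2.55 (1.90 to 3.37) and 5.49 (4.52 to 6.65), and 1.86 and 1.58 in the interiors.

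Lymphatic vessels were hardly seen. Prox1 and Mmrn1, which mark lymphatic endothelium, had 0 UMIs in both sections. Lyve1, its hyaluronan receptor, had 0 UMIs in vessel-rich and 3 in other control spots, and 1 and 9 in the rIL7 section. Ccl21a, the chemokine of lymphatic and nodal endothelium, had 12 of its 19 control UMIs in vessel-rich spots, all of them at the edge, and 0 UMIs in the rIL7 section.

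Mural cell genes, as a sum, were higher in the vessel-rich spots of both tumors, but not each of them was. Over 16 genes the ratio was 1.27 (1.14 to 1.42) in the control tumor and 2.08 (1.88 to 2.28) after rIL7, and 1.25 (1.1 to 1.42) and 1.40 (1.20 to 1.63) in the interiors. Of 9 mural genes with enough UMIs, 5 were 1.5-fold higher in the control tumor and 6 after rIL7, against 5.75% and 10% of all genes. Rgs5, a pericyte marker, had 18.7 against 10.5 CPM in the control tumor and 56.2 against 6.51 CPM after rIL7, ratios of 1.77 (1.22 to 2.51) and 8.63 (6.73 to 11.0), and 1.88 and 2.25 in the interiors. Mcam, shared by pericytes and endothelium, had 39.3 against 18.5 CPM and 43.7 against 11.0 CPM, ratios of 2.12 (1.65 to 2.71) and 3.96 (3.08 to 5.05). Pdgfrb, the receptor that holds pericytes to endothelium and is also found on fibroblasts, was near 1 in both, at 0.975 (0.801 to 1.18) and 1.07 (0.883 to 1.28). Cspg4, the proteoglycan NG2, had 0.990 (0.763 to 1.27) and 0.905 (0.667 to 1.20). In the control tumor the whole list held 187 against 147 CPM, and Mcam made up a large part of that gap. With the 6 selecting genes weighted equally, the control log2 ratio of the list was 0.15 (-0.0075 to 0.31), an interval that reached below 0.

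Contractile genes of smooth muscle had a list ratio of 1.40 (1.23 to 1.60) in the control tumor and 2.10 (1.90 to 2.32) after rIL7, and 1.33 (1.14 to 1.56) and 1.25 (1.06 to 1.48) in the interiors. Acta2 (smooth muscle actin) had 28.5 against 16.1 CPM and 74.0 against 23.5 CPM, ratios of 1.77 (1.32 to 2.35) and 3.15 (2.62 to 3.77). Myh11, the smooth muscle myosin, had 11 of 33 control UMIs and 28 of 51 rIL7 UMIs in vessel-rich spots, ratios of 5.13 (2.25 to 11.0) and 13.8 (7.68 to 25.1). Tagln and Myl9, proteins of the contractile apparatus, had 2.62 and 3.08 in the control tumor and 13.5 and 12.6 after rIL7.

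The basement membrane list had ratios of 1.12 (1.09 to 1.16) and 1.32 (1.28 to 1.35), and 1.12 and 1.11 in the interiors. The type IV collagen chain Col4a1 had 1.26 (1.12 to 1.42) in the control tumor and 1.95 (1.78 to 2.12) after rIL7, and its partner Col4a2 1.64 (1.47 to 1.83) and 1.90 (1.73 to 2.09). Sparcl1, a matrix glycoprotein of vessel walls, had 23.1 against 7.55 CPM and 31.7 against 4.99 CPM, ratios of 3.05 (2.16 to 4.26) and 6.35 (4.63 to 8.66), and 3.10 and 2.72 in the interiors. Col15a1, a collagen at the outer face of basement membranes, had 2.47 (1.64 to 3.64) and 3.92 (3.09 to 4.94). The laminin chains Lamb1, Lamb2 and Lamc1 lay between 0.878 and 0.972 in both sections.

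**Figure D3:**
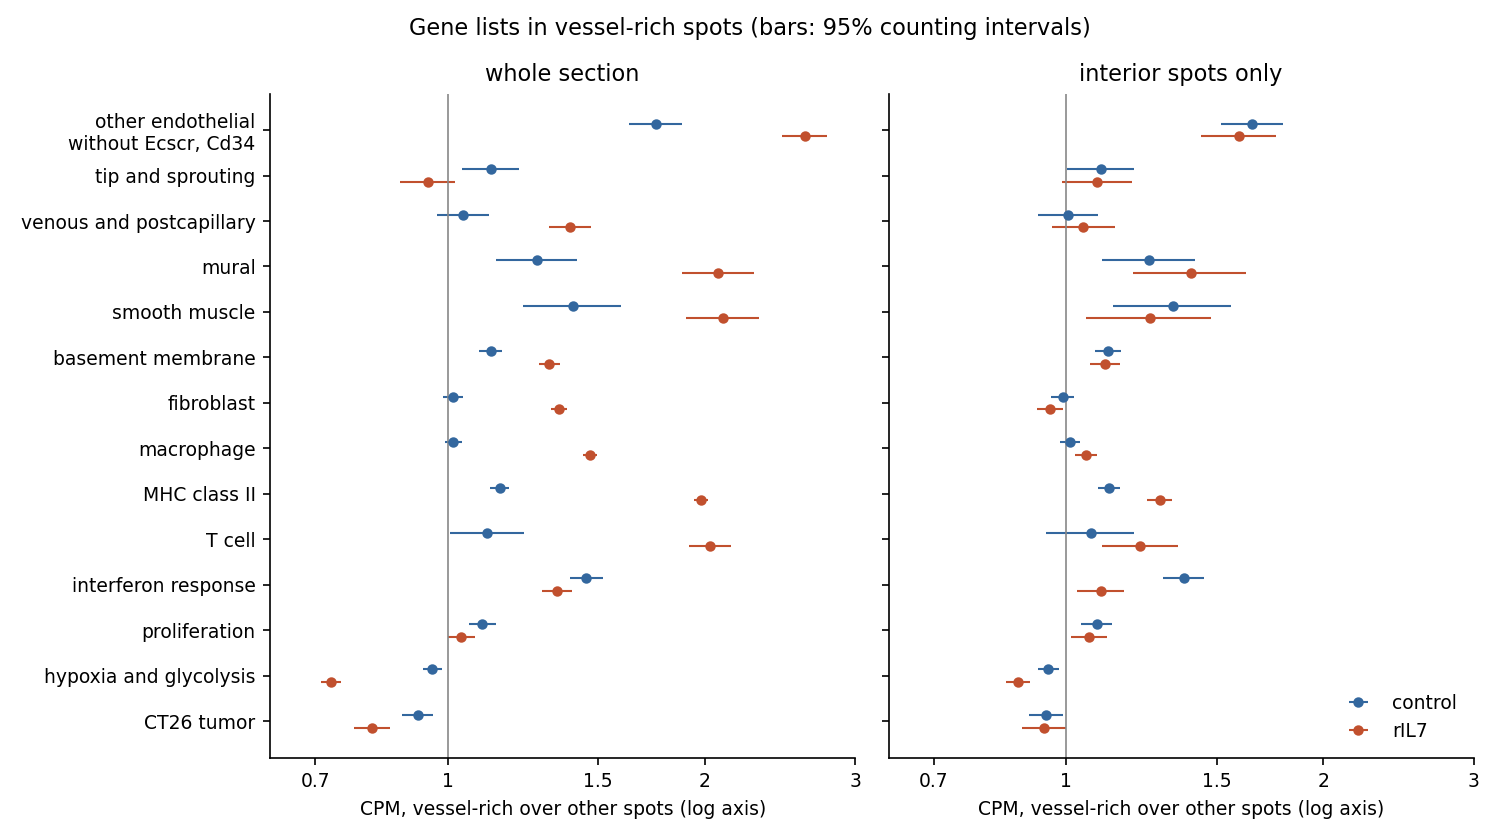
Points give the ratio of summed CPM in vessel-rich over other spots for 14 gene lists (log axis), in the control (blue) and the rIL7 section (red), over the whole section at left and interior spots at right, and bars are 95% counting intervals. Mural genes stand at 1.27 and 2.08 at left and at 1.25 and 1.40 at right, and endothelium without Ecscr and Cd34 at 1.65 and 1.59 at right.

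Across the whole transcriptome, more genes passed 1.5-fold in the rIL7 section than in the control, an order that turned when interior spots were ranked on their own. Of 7339 genes with at least 20 CPM in both sections, leaving out the 6 selecting genes, 21 genes (0.286%) were at least 1.5-fold higher in the control vessel-rich spots and 16 genes (0.218%) lower. In the rIL7 section 173 genes (2.36%) were higher and 54 genes (0.736%) lower. With TMM scaling (library size factors that assume most genes alike) the counts were 17 higher and 24 lower for the control and 117 and 114 for rIL7. Median-of-ratios scaling gave 18 and 23 for the control and 148 and 72 for rIL7. The order of higher against lower genes thus turned with the scaling in the control. In the rIL7 section higher genes stayed more numerous, though barely so with TMM. Among interior spots, 23 genes (0.313%) were higher and 27 genes (0.368%) lower in the control section. The rIL7 interior gave 36 genes (0.491%) higher and 66 genes (0.899%) lower, from 96 vessel-rich spots. With the top 10% chosen again among interior spots, the counts were 22 and 20 in the control and 10 and 8 for rIL7. Higher in both sections were 13 genes, 61.9% of the control set and 7.51% of the rIL7 set, and lower in both were 0. Of the 13, 12 passed 1.5-fold in the control interior, 7 in the rIL7 interior and 6 in both. With interior spots ranked again, 11 of the 13 passed in the control, 3 in the rIL7 section and 3 in both, namely Ctla2a, Igfbp3 and Igfbp7.

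Several of the genes higher in both sections are known from vessels. Plvap (chr8:71497753-71511806), which forms the diaphragms of endothelial pores, had 59.9 against 25.1 CPM in the control tumor and 90.8 against 24.6 CPM after rIL7, ratios of 2.39 (1.94 to 2.91) and 3.69 (3.12 to 4.36). Igfbp7 (chr5:77349240-77408045), a binding protein laid down in vessel walls, had 126 against 57.1 CPM and 215 against 40.7 CPM, ratios of 2.21 (1.92 to 2.53) and 5.28 (4.71 to 5.92). Plvap had 2.08 and 1.58 in the interiors, and Igfbp7 2.16 and 1.90. Igfbp3 (chr11:7206086-7215498), which binds insulin-like growth factors, had 60.9 against 34.3 CPM and 48.5 against 22.3 CPM, ratios of 1.77 (1.45 to 2.15) and 2.17 (1.74 to 2.69), and 1.67 and 2.54 in the interiors. Fabp4 (chr3:10204342-10208616), a fatty acid carrier of capillary endothelium and fat cells, had 174 against 98.9 CPM and 369.8 against 111 CPM. Its ratios were 1.76 (1.57 to 1.97) and 3.34 (3.08 to 3.63), and 1.69 and 1.53 in the interiors. Col4a2 (chr8:11312805-11449287), described above with the basement membrane, had 1.62 and 1.42 there.

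The remaining genes of that set are of several kinds, among them matrix, plasma protein, immune and contractile cell genes. Bgn (biglycan, chrX:73483601-73495936) had 93.3 against 47.6 CPM in the control tumor and 272 against 71.4 CPM after rIL7, ratios of 1.96 (1.67 to 2.29) and 3.81 (3.45 to 4.19). Serping1 (chr2:84765360-84775444), the inhibitor of complement C1, had 31.9 against 19.7 CPM and 131 against 34.0 CPM, ratios of 1.62 (1.22 to 2.10) and 3.85 (3.34 to 4.42). Ctla2a (chr13:60934155-60936625), a protease inhibitor, had ratios of 1.92 (1.51 to 2.42) and 2.38 (2.02 to 2.79). Ly6c2 (chr15:75108161-75112066) and Ly6a, surface proteins of leukocytes that endothelium can also carry, had 1.88 and 1.61 in the control tumor and 2.57 and 1.5 after rIL7. Ccl5 (chr11:83525778-83530518), a chemokine that draws T cells, had 177 against 112 CPM and 551 against 226 CPM. Its rIL7 ratio was 2.44 (2.28 to 2.60) over the section and 1.11 (0.973 to 1.26) in the interior. Itgal (chr7:127296139-127335137), a leukocyte integrin chain, had 1.54 and 1.59, and Csrp1 (chr1:135720063-135752229), a protein of contractile cells, 1.53 and 1.67.

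**Figure D4:**
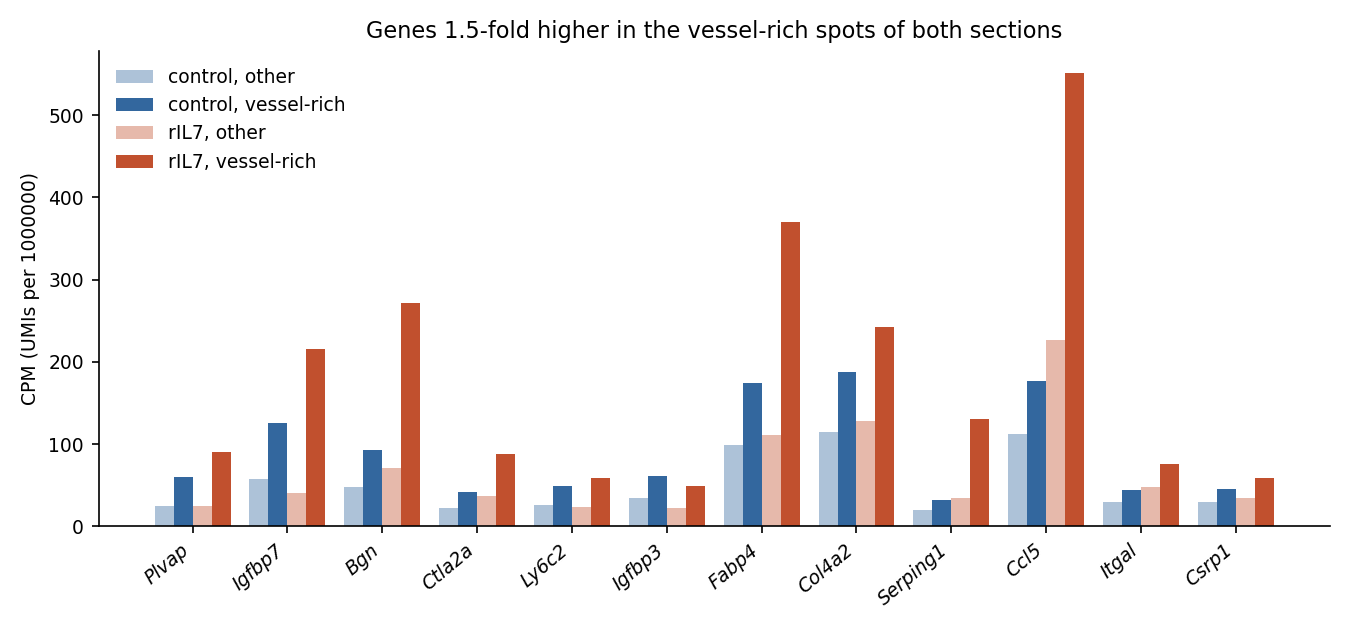
Bars give the CPM of 12 genes that were at least 1.5-fold higher in vessel-rich spots than in other spots of both the control section (blue) and the rIL7 section (red), with the vessel-rich spots in the darker shade. Ccl5 reaches the highest level, 551 CPM in the rIL7 vessel-rich spots, and Igfbp7 has the highest rIL7 ratio of the 12, 5.28.

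T cell RNA was higher in the vessel-rich spots of the rIL7 tumor, most of all at the rim. The T cell list had a ratio of 1.11 (1.01 to 1.23) in the control tumor and 2.03 (1.91 to 2.14) after rIL7. In the interiors it was 1.07 (0.947 to 1.20) and 1.22 (1.1 to 1.35), and at the rIL7 edge 1.77 (1.63 to 1.91). Of 13 genes, 3 were 1.5-fold higher in the control tumor and 12 after rIL7, against 5.75% and 10% of all genes, and 1 was 1.5-fold lower in the control. Trac, the alpha chain of the T cell receptor, had 9.33 against 7.17 CPM in the control tumor and 65.8 against 24.7 CPM after rIL7, ratios of 1.30 (0.762 to 2.10) and 2.66 (2.20 to 3.21). Cd3e, a chain of the receptor complex, had 3.93 against 3.35 CPM and 26.9 against 11.5 CPM, ratios of 1.17 (0.488 to 2.44) and 2.33 (1.72 to 3.12). Cd8a, which marks cytotoxic T cells, had 1.13 (0.631 to 1.90) and 2.36 (1.87 to 2.97), and 1.58 in the rIL7 interior. Cd4, which marks helper T cells and is also made by some macrophages, had 0.811 (0.160 to 2.56) and 4.92 (3.52 to 6.80), from 3 and 55 UMIs in vessel-rich spots, and 3.29 in the rIL7 interior.

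Genes of killer lymphocytes showed a smaller difference than T cell genes over the whole rIL7 section, but not in its interior. The cytotoxicity list had a ratio of 1.07 (0.931 to 1.24) in the control tumor and 1.39 (1.28 to 1.51) after rIL7, where the interior gave 1.27 (1.13 to 1.43). Gzmb (granzyme B) had 1.22 (0.902 to 1.63) and 1.54 (1.25 to 1.87), and Prf1 (perforin) 0.667 (0.434 to 0.984) and 0.946 (0.728 to 1.21). The natural killer cell list had 1.14 (0.844 to 1.5) and 1.53 (1.29 to 1.80), with 1.25 (0.963 to 1.60) in the rIL7 interior. Il7r, the receptor of the injected cytokine, had 4 of 69 control UMIs in vessel-rich spots and 23 of 143 in the rIL7 section, where its ratio was 2.18 (1.33 to 3.42), and 1.18 in the interior. Il2rg, the common cytokine receptor chain, had 1.13 (0.960 to 1.32) and 1.57 (1.39 to 1.78). The whole list of 10 genes of the interleukin 7 pathway had 1.07 (0.991 to 1.16) and 1.28 (1.20 to 1.36), and 1.08 (0.992 to 1.18) and 1.11 (1.01 to 1.21) in the interiors.

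Antigen presentation and macrophage genes were higher in the rIL7 vessel-rich spots. The list of major histocompatibility complex (MHC) class II genes had a ratio of 1.15 (1.12 to 1.18) in the control tumor and 1.98 (1.94 to 2.02) after rIL7, and 1.12 (1.09 to 1.16) and 1.29 (1.24 to 1.33) in the interiors. H2-Eb1, a class II beta chain, had 379 against 342 CPM in the control tumor and 962 against 427 CPM after rIL7. Its ratios were 1.11 (1.03 to 1.19) and 2.25 (2.14 to 2.36), and 1.09 and 1.37 in the interiors. The macrophage list had 1.02 (0.992 to 1.04) and 1.47 (1.44 to 1.5), and 1.01 and 1.05 in the interiors, nearly level inside. Apoe, a lipid carrier of macrophages, had 1.02 in the control tumor and 1.64 after rIL7, and the complement gene C1qa 0.975 and 1.51. The dendritic cell list had 1.11 (1.02 to 1.21) and 1.42 (1.31 to 1.53), but 1.11 (0.990 to 1.24) in the rIL7 interior, where its median log2 ratio was -0.32. Ccr7, the homing receptor of migrating dendritic cells and naive T cells, had 5.57 (3.92 to 7.84) in the rIL7 section and 0.671 in its interior. Neutrophil genes had 1.09 (0.984 to 1.20) and 0.935 (0.869 to 1.01), and 1.14 (1.02 to 1.26) and 1.01 (0.915 to 1.1) in the interiors. Monocyte genes had a summed ratio of 1.07 (1.02 to 1.13) and 1.01 (0.967 to 1.05), and 1.03 (0.973 to 1.09) and 0.929 (0.874 to 0.987) in the interiors. Gene by gene, 2 of 7 monocyte genes were 1.5-fold higher in the control tumor and 5 after rIL7, with 0 lower. Of all genes, 5.75% and 10% were that much higher. The monocyte genes had median log2 ratios of 0.39 and 0.83, so that sum and median differed. In the interiors these medians were 0.13 and 0.11, with 6 and 4 of the 7 genes above 1.

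Immunoglobulin RNA gave the highest ratio among the 30 lists in the rIL7 section, and it came from the rim. The B and plasma cell list held 36.8 against 29.3 CPM in the control tumor and 1016 against 93.5 CPM after rIL7, ratios of 1.26 (0.977 to 1.60) and 10.9 (10.2 to 11.5). Igkc, the kappa light chain, supplied 1805 of the 2115 UMIs, of which 1748 were in edge members and 12 in interior members. Jchain, which joins secreted antibodies, had 151 UMIs in vessel-rich and 114 in other spots of that section. In the interior the list ratio was 0.904 (0.647 to 1.23). Ms4a1, which marks B cells, had 0 UMIs in the rIL7 vessel-rich spots.

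The summed list of molecules that recruit leukocytes was higher in the vessel-rich spots of both tumors, though some members were near level. Its ratios were 1.17 (1.12 to 1.22) and 1.31 (1.27 to 1.35), and 1.13 and 1.1 in the interiors. In the control tumor the list held 1303 against 1116 CPM. Most of that gap came from Cxcl10, whose values follow with the interferon genes. Icam2, an adhesion molecule of resting endothelium, had 1.57 (0.916 to 2.56) and 3.92 (2.66 to 5.65), and 1.54 and 2.85 in the interiors. Cxcl9, a chemokine for activated T cells, had 80.5 against 54.2 CPM in the control tumor and 353 against 154 CPM after rIL7, ratios of 1.49 (1.25 to 1.75) and 2.29 (2.11 to 2.48). It was higher in the interiors as well, at 1.52 and 1.58. Cxcl12, a chemokine of stroma and endothelium, had 7.86 against 3.54 CPM and 86.4 against 13.8 CPM, ratios of 2.22 (1.21 to 3.85) and 6.25 (5.18 to 7.52), and 2.26 and 2.82 in the interiors. Vcam1, an adhesion molecule of inflamed endothelium, had 1.0 (0.899 to 1.12) and 1.23 (1.13 to 1.34), and the monocyte chemokine Ccl2 0.996 (0.941 to 1.05) and 0.936 (0.889 to 0.986).

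Interferon response genes were higher in the vessel-rich spots of both tumors, and in the interiors more so in the control. The list ratio was 1.45 (1.39 to 1.52) in the control tumor and 1.34 (1.29 to 1.40) after rIL7, and 1.37 (1.30 to 1.45) and 1.1 (1.03 to 1.17) in the interiors. Of 13 genes, 12 were above 1 in the control tumor and 13 after rIL7, where 54.1% and 50.5% of all 12927 genes were. The list had 3 and 1 genes past 1.5-fold, and 1 of 13 is no more than the 10% of all genes in the rIL7 section, against 5.75% in the control. Isg15, a ubiquitin-like protein induced by interferon, had 279 against 154 CPM in the control tumor and 145 against 112 CPM after rIL7, ratios of 1.81 (1.66 to 1.98) and 1.30 (1.15 to 1.46). Cxcl10, an interferon-induced chemokine, was counted in the recruitment list and not in this one. It had 305 against 168 CPM and 377 against 255 CPM, ratios of 1.82 (1.67 to 1.99) and 1.48 (1.37 to 1.59). Ifit3 and Rsad2, antiviral effectors, had 1.78 (1.48 to 2.13) and 1.73 (1.35 to 2.18) in the control tumor and 1.32 (1.06 to 1.63) and 1.11 (0.792 to 1.51) after rIL7.

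Genes of the oxygen-starved state were lower in vessel-rich spots, slightly in the control and more in the rIL7 tumor. The hypoxia and glycolysis list had a ratio of 0.960 (0.936 to 0.984) in the control tumor and 0.730 (0.711 to 0.750) after rIL7, and 0.953 (0.926 to 0.981) and 0.879 (0.851 to 0.908) in the interiors. At the rIL7 edge it was 0.557 (0.529 to 0.585). Of 14 genes, 0 were 1.5-fold lower in the control tumor and 4 after rIL7, against 4.99% and 5.94% of all genes, and 1 was 1.5-fold higher in each. Vegfa, the main ligand of Kdr, had 71.2 against 82.7 CPM in the control tumor and 59.1 against 87.8 CPM after rIL7, ratios of 0.861 (0.722 to 1.02) and 0.673 (0.556 to 0.807). Bnip3, a mitochondrial protein induced by low oxygen, had 168 against 184 CPM and 163 against 252 CPM, ratios of 0.914 (0.816 to 1.02) and 0.646 (0.577 to 0.721). Ankrd37, another target of low oxygen, had 89.4 against 93.2 CPM and 51.9 against 108 CPM, ratios of 0.959 (0.819 to 1.12) and 0.480 (0.392 to 0.582), with 0.622 in the rIL7 interior. Pfkfb3, a regulator of glycolysis, went the other way, at 1.23 (0.868 to 1.69) and 1.66 (1.31 to 2.09).

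The summed RNA of 2 tumor cell markers was a little lower in vessel-rich spots. In the control tumor 1 of the 2 lay above 1, over the section and in the interior, and in the rIL7 section 0 did. The pair Rpl39l and Baiap2l1, used as CT26 markers, had a summed ratio of 0.923 (0.885 to 0.962) in the control tumor and 0.816 (0.777 to 0.856) after rIL7, and 0.948 and 0.942 in the interiors. The proliferation list had 1.1 (1.06 to 1.14) and 1.04 (1.0 to 1.08), and 1.09 (1.04 to 1.13) and 1.06 (1.01 to 1.12) in the interiors. Ligands that act on vessels had 0.984 (0.937 to 1.03) and 0.868 (0.826 to 0.912), and 0.982 (0.929 to 1.04) and 0.926 (0.869 to 0.986) in the interiors.

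Fibroblast and fat cell genes separated the rim from the interior in the rIL7 section. The fibroblast list had a ratio of 1.01 (0.987 to 1.04) in the control tumor and 1.35 (1.32 to 1.38) after rIL7, against 0.991 and 0.957 in the interiors. Col1a1, a type I collagen chain, had 256 against 197 CPM and 569 against 206 CPM, ratios of 1.30 (1.18 to 1.42) and 2.76 (2.59 to 2.94), and 1.22 and 1.23 in the interiors. The adipocyte list had 1.75 (1.56 to 1.96) and 4.51 (4.21 to 4.83), and 1.66 and 1.49 in the interiors, most of it Fabp4. Cfd (adipsin) had 176 UMIs in rIL7 vessel-rich spots, of which 123 were off the main piece and 1 in the interior, and 3 UMIs in the control ones. Adipoq (adiponectin) had 20 and 0. The part of these cells in the values of the whole rIL7 section was not tested.

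Markers of neighbouring tissues were also summed. The keratinocyte list held 69.2 CPM in control and 29.3 CPM in rIL7 vessel-rich spots, with ratios of 1.14 (0.955 to 1.36) and 0.757 (0.574 to 0.982), and the skeletal muscle list 1.1 (0.940 to 1.28) and 1.39 (0.849 to 2.17). The nerve list had 1.20 (0.877 to 1.60) and 1.66 (1.41 to 1.93), with 1.14 (0.821 to 1.54) in the rIL7 interior. Red blood cell and platelet genes had 65 UMIs in control and 60 in rIL7 vessel-rich spots, and ratios of 1.28 (0.974 to 1.66) and 1.09 (0.822 to 1.42).

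The endothelial excess was much smaller 1 grid step away. Endothelial genes without Ecscr and Cd34 had 441 CPM in control vessel-rich spots, 269.7 CPM in the spots next to them, 249 CPM at 2 steps and 223 CPM at 3 or more. In the rIL7 section the values were 616, 253, 232 and 222 CPM, and in its interior 367, 238, 230 and 224 CPM. T cell genes had a more gradual slope in the rIL7 section, with 690.2 CPM in vessel-rich spots, 427 at 1 step, 319 at 2 and 283 at 3 or more. In its interior they had 359.8, 324, 300.0 and 266 CPM, whereas in the control section they lay between 186 and 215 CPM. Control interferon genes had 1119, 851, 706 and 732 CPM, with the lowest value at 2 steps. Hypoxia genes of the rIL7 section ran the other way, with 2836, 3612, 3981 and 4032 CPM. In its interior the hypoxia genes had 3431, 3865, 3889 and 3943 CPM, nearly flat from 1 step on.

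**Figure D5:**
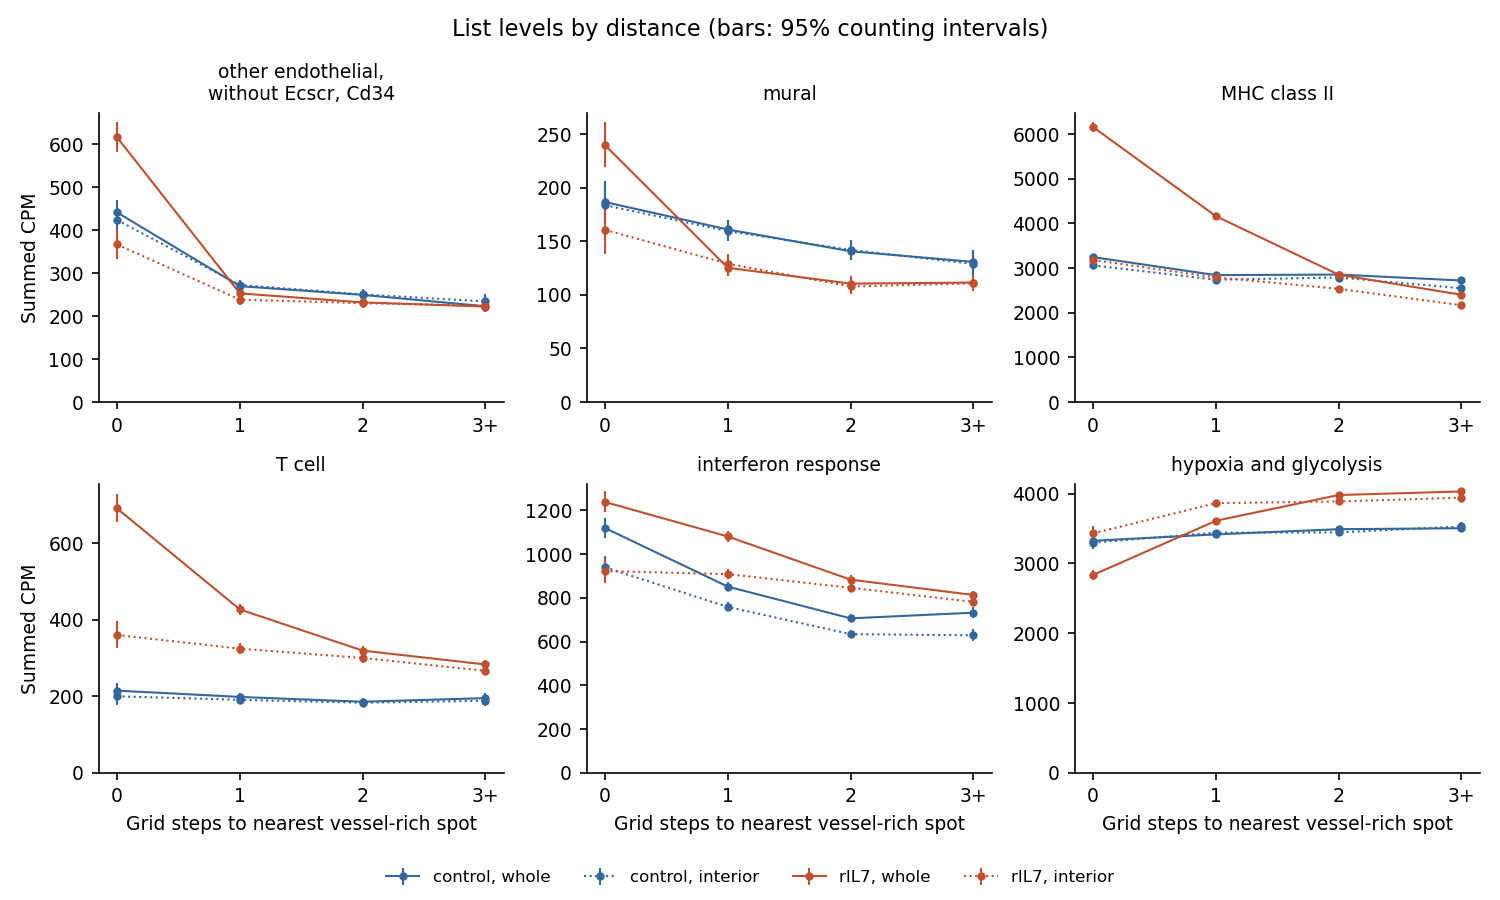
Lines give the summed CPM of 6 gene lists at 0 (vessel-rich), 1, 2 and 3 or more grid steps from the nearest vessel-rich spot, over all spots (solid) and interior spots (dotted), in the control (blue) and the rIL7 section (red), with 95% counting intervals as bars. Endothelial genes drop at the first step, from 441 to 269.7 CPM in the control section, while rIL7 T cell genes, from 690.2 to 283 CPM, are lower at each further step. Spots at 1 or more steps had missed the cut on the 6 selecting endothelial genes.

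The level of other endothelial genes also rose with the number of selecting UMIs in a spot. In the control section, endothelial genes without Ecscr and Cd34 had 226 CPM in spots with 0 such UMIs, 253 with 1, 322 with 2, 407 with 3 to 4 and 767 with 5 or more. The rIL7 section gave 223, 236, 302, 381 and 1108 CPM. The last class held 24 control and 37 rIL7 spots. In the rIL7 interior the values were 218, 229, 274, 325 and 474 CPM, and the last class of the control interior had 720.0 CPM. T cell genes rose from 328 to 731 CPM over the rIL7 section. They fell in the last class of the control section, from 220 to 194 CPM, and of the rIL7 interior, from 319 to 274 CPM. The median depth of the first and the last class was 8865 and 15156 UMIs in the control section. For rIL7 it was 12188 UMIs in the first class, 14827 with 3 to 4 selecting UMIs and 12962 in the last, so that depth was highest in the last class of the control section but not of the rIL7 section.

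Set side by side, the rIL7 section held somewhat less of the selecting RNAs as a sum. The 6 genes summed to 74.7 CPM over all control spots and 66.3 CPM over all rIL7 spots, a ratio of rIL7 over control of 0.887 (0.829 to 0.949). Kdr gave 0.711 (0.583 to 0.867), Egfl7 0.759 (0.675 to 0.854) and Pecam1 1.1 (0.974 to 1.24). Within vessel-rich spots, other endothelial genes without Ecscr and Cd34 had a ratio of rIL7 over control of 1.40 (1.28 to 1.52), and 0.866 (0.764 to 0.980) among interior members. Mural genes gave 1.28 (1.12 to 1.47) in vessel-rich spots and 0.875 (0.723 to 1.06) in interior ones. The full list, with Ecscr and Cd34, gave 1.1 (1.04 to 1.17) and 0.944 (0.874 to 1.02). These lists were above 1 over all vessel-rich spots and below 1 among interior ones, where the intervals of the mural and the full endothelial list reached above 1.

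T cell, cytotoxicity, class II and macrophage genes were higher in the rIL7 than in the control vessel-rich spots. T cell genes had a ratio of rIL7 over control of 3.22 (2.89 to 3.59) in vessel-rich spots, 1.77 (1.70 to 1.84) in the other spots and 1.80 (1.55 to 2.09) in interior vessel-rich spots. Cytotoxicity genes gave 2.73 (2.33 to 3.19) in vessel-rich spots, 2.10 (2.00 to 2.21) in the other spots and 2.76 (2.25 to 3.39) in interior vessel-rich spots. T cell and cytotoxicity genes were thus higher in the rIL7 section outside the vessel-rich spots too. Class II genes gave 1.90 (1.84 to 1.96) and 1.04 (0.995 to 1.09), and macrophage genes 1.62 (1.57 to 1.67) and 1.08 (1.04 to 1.12), so that both lay closer to 1 in the interior. Hypoxia genes gave 0.853 (0.823 to 0.883) in vessel-rich spots and 1.12 (1.11 to 1.13) in the other spots, but 1.04 (0.998 to 1.08) among interior vessel-rich spots.

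Among genes of 50 CPM or more, the largest gaps between the rIL7 and the control ratio were read off. The ratio of the rIL7 ratio over the control ratio was 2.39 (2.01 to 2.85) for Igfbp7, 2.15 (1.98 to 2.34) for Col3a1 (a fibrillar collagen), 2.12 (1.90 to 2.37) for Col1a1, 2.03 (1.86 to 2.22) for H2-Eb1 and 2.03 (1.68 to 2.45) for C3, the central complement component. At the other end were Ankrd37 at 0.501 (0.392 to 0.640), Mthfd2l (a mitochondrial folate enzyme) at 0.551 (0.409 to 0.742), Mafk (a small Maf transcription factor) at 0.593 (0.452 to 0.778), Nomo1 (a protein of the endoplasmic reticulum) at 0.595 (0.488 to 0.725) and Dip2a at 0.605 (0.457 to 0.801). In the interiors the ratios were 2.16 and 1.90 for Igfbp7, 0.942 and 0.978 for Col3a1 and 1.30 and 1.25 for C3, while those of Ankrd37 were 1.02 and 0.622.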

How the data were processed

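Visium UMI counts of 2 tumor sections were used, 1 per group, with groups taken from the labels. The authors counted UMIs per gene and spot, and the submitters' processing notes name Space Ranger 1.1.0 and mm10. The deposited matrices hold raw UMI counts for 32285 features, and spot positions were used as deposited. Spots with more than 200 genes and under 10% mitochondrial UMIs were kept, which removed 2 control spots and 1 rIL7 spot and left 22951678 and 25729233 UMIs. The 6 genes were summed as CPM per spot, and the top 10% per section was taken. UMIs were then pooled over vessel-rich and over other spots. Ratios and shares carry exact binomial (Clopper-Pearson) 95% intervals, which leave out differences between animals and libraries, and a ratio of ratios carries a normal interval on the log scale. The members, the 30 gene lists and the rules were chosen with earlier results of these data known. Some lists share genes (Icam1, Icam2, Vcam1, Sele, Selp, Ackr1, Adm, Vegfa, Thy1 and Fn1), and no list estimates cell numbers. Some list members are not reported here by name.

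Genes outside the selecting 6 were described at 20 CPM or more in both sections, or at 20 UMIs for counts within lists, with 1.5-fold as the size. Named were the selecting genes, list members, the 12 highest and 8 lowest genes past 1.5-fold in both sections (0 were lower), and the 5 highest and 5 lowest ratios of ratios at 50 CPM. Ly6a, the last of its set of 13, was named after its values were seen. Coordinates come from RefSeq on GRCm38, matched by symbol for 7260 of the 7339 genes (98.9%). Alternatives covered the spot filter, the share of spots, depth, weighting, the ranking genes, position, the comparison spots, the gene minimum and scaling, with TMM from edgeR 4.0.16 and median-of-ratios factors from DESeq2 1.42.0, used for scaling factors only. The functions were tested on simulated data. Python 3.11.15, SciPy 1.17.1 and R 4.3.3 were used.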

Additional observations from a re-analysis of the deposited data

Results flagged for a closer look

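For 1 gene list and 2 named genes, vessel-rich spots lay above the other spots in one section and below them in the other, with both counting intervals clear of 1. None of these differences was tested, since each group has 1 section. The lymphatic list had a ratio of 1.16 (1.04 to 1.29) in the control section and 0.830 (0.731 to 0.940) in the rIL7 section, and 1.14 (1.01 to 1.29) and 0.947 (0.808 to 1.1) in the interiors. Nearly all of it was Pdpn (podoplanin), which stromal cells also make, with 346 of 362 UMIs in control and 261 of 269 in rIL7 vessel-rich spots. Pdpn itself had 169.9 against 152 CPM in the control section and 125 against 155 CPM in the rIL7 section. Adgre1, the macrophage surface protein F4/80, had 35.4 against 47.5 CPM and 59.1 against 33.9 CPM, ratios of 0.745 (0.578 to 0.946) and 1.74 (1.43 to 2.11), and 0.785 and 0.966 in the interiors. Nomo1, a membrane protein of the endoplasmic reticulum, had 145 against 114 CPM and 80.2 against 106 CPM, ratios of 1.28 (1.13 to 1.44) and 0.759 (0.645 to 0.888), and 1.29 and 0.902 in the interiors.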

How the results depend on the processing

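None of 94 list values (log2 ratios of the endothelial, mural and T cell lists) changed sign under the alternatives, and 31 of them moved, as did 32 of 68 counts of genes past 1.5-fold. The counts did change their order: control genes were more often lower than higher with the top 5% of spots, TMM, median-of-ratios scaling (18 and 23) and ranking by Emcn, Cldn5 and Egfl7 (16 and 20), rIL7 genes with the top 5%, and the control had more genes than rIL7 with interior spots ranked again. The values to compare with are 0.29, 0.35 and 0.16 for the 3 lists in the control section and 0.49, 1.05 and 1.02 in the rIL7 section, with 21 genes higher and 16 lower in the control and 173 and 54 in the rIL7 section. With the top 5% of spots, the endothelial list had 0.41 in the control section, the rIL7 lists had 0.73, 1.47 and 1.26, and the counts were 71 and 101 in the control and 302 and 310 in the rIL7 section. With the top 20% they were 0.21, then 0.31, 0.67 and 0.68, with 9 and 0 genes in the control and 47 and 1 in the rIL7 section. With the 6 genes weighted equally, the control endothelial and mural lists had 0.21 and 0.15, the rIL7 lists 0.36, 0.90 and 0.90, and the counts were 10 and 9, and 109 and 26. The interval of that control mural value, -0.0075 to 0.31, reached below 0. So did that of the control T cell list in this setting, 0.05 (-0.10 to 0.19). With interior spots ranked again the control T cell list had 0.11 (-0.05 to 0.27). With totals that left out mitochondrial, ribosomal protein and haemoglobin genes it had 0.14 (-0.0089 to 0.28). Ranked by Pecam1, Cdh5 and Kdr, the endothelial list had 0.19 in the control section, the rIL7 lists had 0.37, 0.82 and 0.90, and 113 genes were higher in the rIL7 section. Ranked by Emcn, Cldn5 and Egfl7, the rIL7 T cell list had 0.75, with 58 and 18 genes. Ranked within depth deciles, the rIL7 endothelial and T cell lists had 0.41 and 0.72, with 66 and 26 genes.

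Ranked again within interior spots, the rIL7 lists had 0.19, 0.40 and 0.25, with 10 and 8 genes against 22 and 20 in the control. With spots of at least 5000 UMIs it was 0.45 for the rIL7 endothelial list, with 142 and 39 genes. Against spots within 2 grid steps, the rIL7 T cell list had 0.89. With TMM scaling the rIL7 endothelial list had 0.42, with 117 and 114 genes against 17 and 24 in the control. With spots weighted equally, the control counts were 48 and 25, and 91 genes were lower in the rIL7 section. At 5 CPM the counts were 173 and 153 in the control and 524 and 254 in the rIL7 section, and with at least 1 UMI in each class 1963 and 718, and 2988 and 797, by construction from more and sparser genes. Alternatives chosen after seeing the data were the main piece alone, which gave 0.41 and 0.86 for the rIL7 endothelial and mural lists and 9 lower control genes, leaving out Ecscr and Cd34, which gave 0.81 and 1.39, and leaving out Trbc2 from the T cell list, which gave 0.32 and 1.22. Apart from the gene minimum and the lists left out, the cause of these moves was not tested.

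With 1 section per group, animal, library and treatment cannot be told apart, and counting intervals do not cover them. About 3 UMIs chose a member, so that spots on both sides of the threshold are hard to tell apart at this depth. Genes under 20 UMIs, such as 6 of the 7 lymphatic markers in at least 1 section, were left out of the counts within lists. No paired analysis was possible because each group has 1 section and no test was run.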

Other observations

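A few genes among the 15 highest or 10 lowest ratios of a single section, not described above, were chosen after their values were seen. In the rIL7 section, the matrix genes Col6a3, Mmp2, Loxl1 and Fbn1 had ratios of 2.75 (2.31 to 3.27), 2.63 (2.26 to 3.06), 2.54 (2.09 to 3.07) and 2.40 (2.06 to 2.80), against 1.22, 1.02, 1.16 and 1.1 in the control section. In the rIL7 interior they had 1.39, 1.37, 1.61 and 1.35. In the control section, the interferon-induced genes Slfn4 and Ifi44l had 1.78 (1.49 to 2.11) and 1.70 (1.41 to 2.03), against 0.959 (0.764 to 1.19) and 1.5 (1.27 to 1.76) in the rIL7 section. Gzmg, a granzyme, had 29.5 against 47.3 CPM in vessel-rich against other control spots and 52.8 against 51.8 CPM in the rIL7 section, ratios of 0.623 (0.472 to 0.809) and 1.02 (0.831 to 1.24). None of these differences between the sections was tested.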
